A study of Caenorhabditis elegans with 55 samples.

Results

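CSR-1a is the longer isoform of CSR-1, an Argonaute protein of Caenorhabditis elegans, and the small RNAs that it holds were sequenced from strain JMC151. In JMC151 the csr-1 allele tor160 carries a gfp::3xflag tag in exon 1, a part of the gene that the shorter isoform CSR-1b lacks. Beads that bind GFP were used to pull the tagged protein from whole L4 larvae, which had been kept at 20 C on OP50 bacteria. All features of the JMC151 table were taken, by gene and by class, with the row of reads that match no feature left out. This gave 40965 features in 24 classes, read in 2 immunoprecipitates (IP 1 and IP 2) and 2 input libraries of total small RNA (input 1 and input 2), which are 4 of the 55 samples of the series. A whole worm at this stage holds gut, skin, muscle, nerve and germ cells together, so fewer cells of a type and less RNA per cell cannot be told apart.

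3 other strains, with 2 IP and 2 input libraries each from L4 worms at 20 C, and 12 mRNA libraries were used for comparison. GR3035 carries the reporters rpn-2::gfp and pbs-5::mcherry, and its IP is labelled CSR-1a. Its beads are also labelled as binding GFP although no GFP is listed on an Argonaute, and the protocol names an antibody against CSR-1a besides. JMC164 carries the tag in exon 2 together with the stop allele mg660, so its tagged protein is CSR-1b. JMC205 carries the tag on ALG-3, an Argonaute of the male germline. The mRNA libraries came from strain JMC164, called the csr-1a mutant here, and from the wild type N2, with 3 of each at 20 C and at 25 C. The labels of the mutant disagree: the titles name the allele tor159, while the genotype lists tor67 and mg660, so which allele these libraries carry is not settled.

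Argonautes are proteins that hold a short guide RNA and bind transcripts that pair with it. CSR-1 mostly binds secondary small RNAs, which RNA-dependent RNA polymerases copy from mRNA and which are therefore antisense to genes. In the worm germline CSR-1 is known for binding guides against genes that are expressed, in contrast to the Argonautes that silence transposons and pseudogenes. CSR-1a and CSR-1b differ in their N terminus, and CSR-1a is known from spermatogenesis and from the intestine. The question the comparison addresses is which guides the long isoform carries.

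The JMC151 libraries were shallow. The estimated depth was 1546970 and 1562178 reads in IP 1 and IP 2, and 1302211 and 1496905 reads in input 1 and input 2, against 2818394 to 30284676 reads in the libraries of the other 3 strains. Between 7.36% and 9.94% of the reads of a JMC151 library matched no feature. The values are RPM, reads scaled to the library total, and 1 read was worth 0.640 to 0.768 RPM. Across all 40965 features, with no limit on reads, log2 values correlated at r = 0.916 between the IPs and at 0.896 between the inputs. Between an IP and an input r was 0.743 to 0.779. Antisense reads against the GFP tag itself stood at 97.6 and 62.1 RPM in the IPs and 200.4 and 110.9 RPM in the inputs, and did not pass the test (log2 difference -0.93, limma adjusted p = 0.185).

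The largest class in the IPs was antisense to protein-coding genes. It made up 43.3% and 38.3% of assigned reads in IP 1 and IP 2, against 35.6% and 21.3% in input 1 and input 2, or 40.8 ± 3.51% against 28.4 ± 10.1% (SD, n = 2 each). Reads antisense to pseudogenes stood at 10.3% and 10.8% in the IPs against 5.03% and 3.74% in the inputs. Reads antisense to lincRNAs stood at 3.78% and 6.22% in the IPs against 1.90% and 2.10% in the inputs. In these 3 classes both IPs lay above both inputs.

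Other classes were scarcer in the IPs. MicroRNAs, which are loaded into other Argonautes, took 11.03% and 14.4% of IP reads, against 18.7% and 33.9% of input reads. Reads antisense to transposons took 2.40% and 1.85% of IP reads against 7.54% and 4.45% of input reads, and tRNA fragments 0.526% and 0.668% against 1.70% and 2.38%. In these 3 classes both IPs lay below both inputs, while sense coding reads and rRNA overlapped between the groups. With 2 libraries a group the smallest two-sided p of an exact permutation test is 0.333, so the shares carry no test. The inputs differed from each other in the antisense coding share by more than the group means did: without input 2 the gap in the antisense coding share was 5.20 percentage points, and without input 1 it was 19.5.

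**Figure D1:**
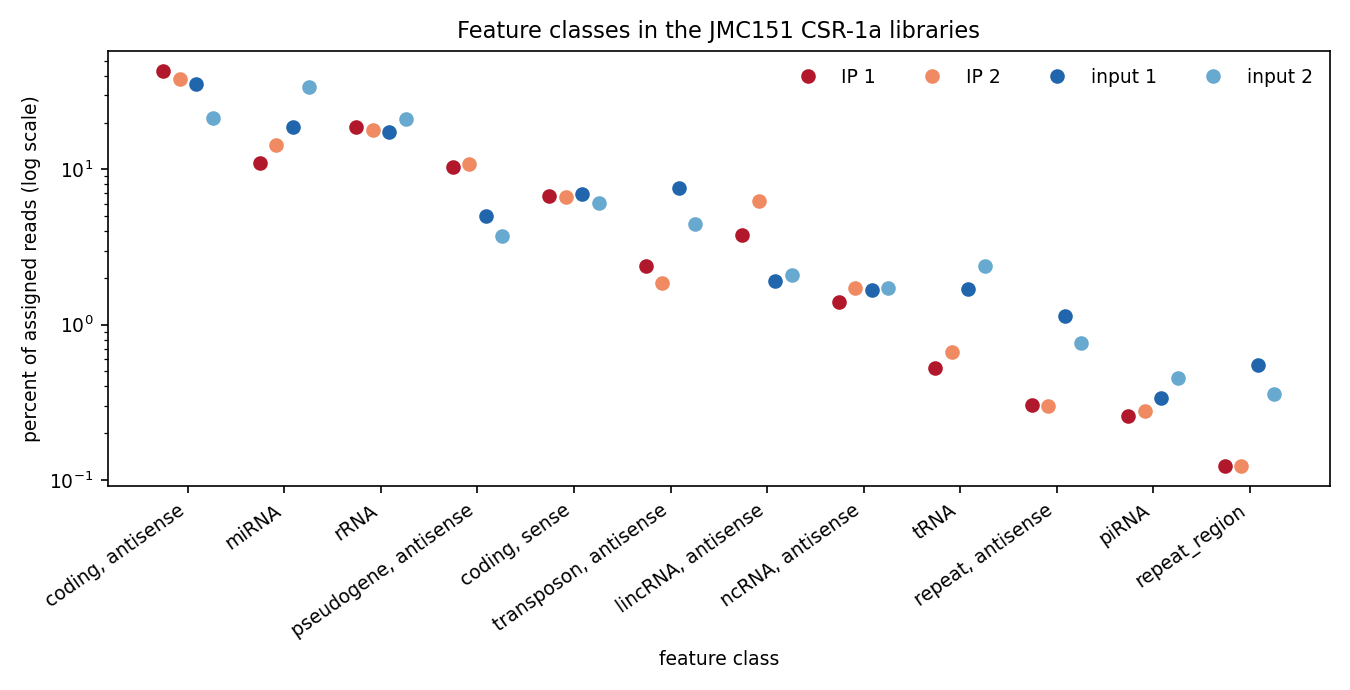
Share of assigned reads (percent, log scale) of the 12 most abundant feature classes in each JMC151 library, with 1 point a library and the IPs left of the inputs. Both IPs lie above both inputs for antisense coding, pseudogene and lincRNA reads and below them for microRNAs, tRNA and reads antisense to transposons and repeats.

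Most of the features that the IP enriched were antisense to coding genes. The test took features with 10 estimated reads in 2 or more of the 4 libraries. A feature was called when limma's adjusted p, on log2(RPM + 1), was under 0.05 and the log2 difference at least 1 in size. Of 9262 features tested, 3014 were enriched (32.5%) and 1873 depleted (20.2%), and both IPs lay above both inputs for 4479 (48.4%) and below them for 2328 (25.1%). Of the 6524 antisense coding features among them, 2774 were enriched (42.5%) and 1005 depleted (15.4%), at a median log2 difference of 1.03. Both IPs lay above both inputs for 3924 of them (60.1%) and below for 1289 (19.8%). The enriched ones together held 27.1% and 25.1% of all reads in the IPs and 4.39% and 2.98% in the inputs. The depleted ones held 3.24% and 2.44% in the IPs and 19.6% and 11.7% in the inputs.

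The number of enriched features over all classes was 370 without IP 1, 520 without IP 2, 1380 with DESeq2 and 770 where both inputs had to hold 10 reads. Of the 2774 enriched antisense features, 655 had 10 reads in both inputs, 555 in 1 input and 1564 in neither, and 50 had no input read at all. Their median was 25.7 RPM in the IPs and 4.64 RPM in the inputs. A feature with few input reads could be tested only by being high in the IPs, so a count of enriched features among those with few input reads was largely fixed by this limit. The number of tested genes with 10 reads in neither input is given for the main lists.

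The reads of the IP were concentrated on few genes. The 10 antisense coding features highest in the IPs held 27.7% and 30.7% of the antisense coding reads of IP 1 and IP 2, and 4.88% and 6.04% of those of input 1 and input 2. The 10 highest in the inputs held 10.0% and 10.2% of those of input 1 and input 2. At 100 features the gap was narrower. The 100 highest in the IPs held 44.4% and 49.0% of the IP reads, and the 100 highest in the inputs 40.4% and 40.4% of the input reads. K06B9.6 was the most abundant, at 21900 and 23355 RPM in the IPs and 1258 and 819 RPM in the inputs (log2 difference 4.48 ± 0.58 SE, limma adjusted p = 3.11e-09). Y47H10A.5 had 20459 and 19856 RPM in the IPs and 2808 and 1995 RPM in the inputs, and WBGene00044559 had 13294 and 9812 RPM against 366 and 450.2 RPM. These 3 were taken as the most abundant of the enriched features, so a gap between the groups follows from the choice.

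K02E2.6, WBGene00021019, C44B11.6 and Y17D7B.4 completed the most abundant enriched features together with acdh-1. Their smallest IP value was 6463 RPM and their largest input value 2922 RPM, both of Y17D7B.4. Their log2 differences ran between 1.49 and 2.93. The call of Y17D7B.4 was lost with TMM scaling, at a log2 difference of 0.86, with edgeR at 0.87, with DESeq2 at 0.88, and without IP 1, IP 2 or input 2. That of K02E2.6 was lost with TMM scaling, at 1.59. In the IPs of CSR-1b and ALG-3 the same 4 features, K06B9.6, Y47H10A.5 and WBGene00044559 were all depleted. K06B9.6, for example, had 141 and 56.0 RPM in the CSR-1b IPs, against 1156 and 1165 RPM in the CSR-1b inputs. In the ALG-3 libraries it had 152 and 158 RPM in the IPs, against 1498 and 1555 RPM in the inputs.

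The antisense features with the widest gap between IPs and inputs were ranked by the distance from the lower IP to the higher input, and 12 of them were taken. The widest gap belonged to gfi-1, with 516 and 515 RPM in the IPs, against 0 and 6.01 RPM in the inputs (log2 difference 7.61 ± 0.62 SE, limma adjusted p = 3.6e-16). acdh-1, an acyl-CoA dehydrogenase of the gut that is induced when vitamin B12 is low, had 5203 and 6831 RPM in the IPs, against 71.9 and 60.7 RPM in the inputs (log2 difference 6.47 ± 0.59 SE, limma adjusted p = 2.98e-14). ftn-2, a ferritin that stores iron, had 339 and 259 RPM in the IPs and 3.07 and 1.34 RPM in the inputs. The 12 genes were chosen for their gap, so their separation between the groups follows from the choice.

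irg-7, a gene of the response to infection in the gut, had 267 and 331 RPM in the IPs and 4.05 and 2.67 RPM in the inputs. npa-1, which codes for a fatty acid binding polyprotein, had 662 and 675 RPM in the IPs and 15.4 and 8.68 RPM in the inputs. Y38E10A.14 had 2487 and 2125 RPM in the IPs and 36.1 and 28.1 RPM in the inputs. The log2 differences of these 3 genes were 6.11, 5.73 and 6.13.

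ilys-5, an invertebrate lysozyme gene, had 41.4 and 71.1 RPM in the IPs and no read in either input. Against the 3 reads that a count of 0 over both inputs allows, it was at least 52.5-fold higher in the IPs. ifb-2 had 99.1 and 84.0 RPM in the IPs, against 0.384 and 0.668 RPM in the inputs, about 1 input read in all, and the ratio of summed reads has a counting interval of 45.7 to 10170 (exact, 95%). These 2 genes are among those whose input level is at the limit of the depth. asp-6, an aspartyl protease gene, had 98.1 and 81.8 RPM in the IPs, against 0.768 and 0.668 RPM in the inputs, which is 2 input reads in all, with an interval of 34.6 to 1046. The histone genes his-32 and his-42 completed the 12, together with ifc-2, and his-32 had 171 and 106 RPM in the IPs and 0.754 and 0.334 RPM in the inputs.

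**Figure D2:**
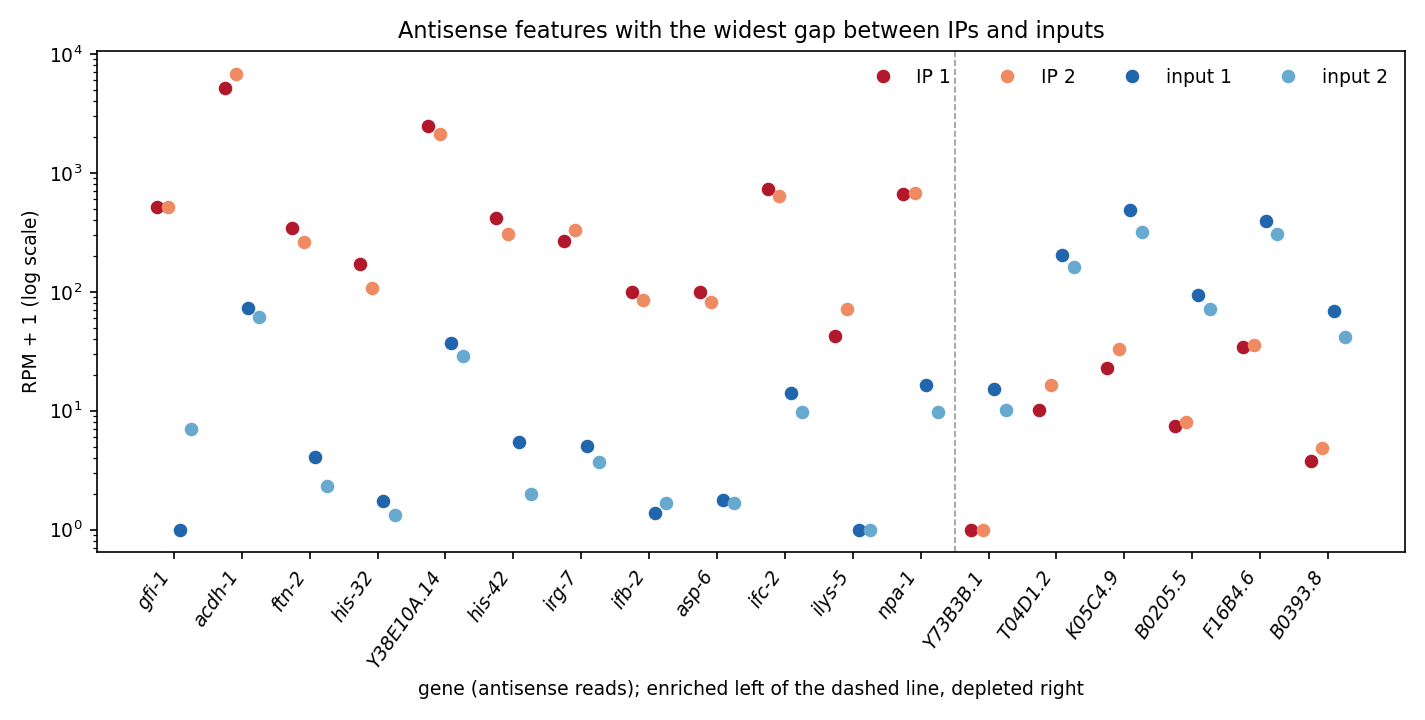
RPM + 1 (log scale) in each JMC151 library for the antisense coding features with the widest gaps, the 12 enriched ones left of the dashed line and the depleted ones right of it, with the IPs left of the inputs for each gene. The enriched features lie at 41.4 to 6831 RPM in the IPs and at 71.9 RPM or less in the inputs; B0393.8 stands for 3 rows with identical values.

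Genes of gut structure and digestion were then described as whole families, chosen after their values were seen. The intestinal intermediate filaments form the mesh under the gut lumen, and all 6 of their genes (ifb-2, ifc-1, ifc-2, ifd-1, ifd-2 and ifp-1) were tested and enriched, 5 of them with 10 reads in neither input. ifc-2 had 733 and 633 RPM in the IPs and 13.1 and 8.68 RPM in the inputs, and ifc-1 had 139.6 and 126 RPM in the IPs and 1.54 and 2.67 RPM in the inputs. The lowest of the 6 was ifd-1, with 14.9 and 23.7 RPM in the IPs against 0.768 and 0.668 RPM in the inputs. The filament genes of other tissues showed almost no guides: ifa-3, ifa-4 and ifb-1 had at most 0.646 RPM in an IP and 0.768 RPM in an input, which is 1 read.

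Of 14 aspartyl protease genes with a row, 9 were tested and 8 enriched, and all 9 had 10 reads in neither input. asp-1, an intestinal protease, had 165 and 103.7 RPM in the IPs and 2.30 and 0.668 RPM in the inputs. asp-12, the one not called, had 19.4 and 6.45 RPM in the IPs and 6.14 and 5.34 RPM in the inputs. Of 7 cathepsin B family genes 6 were tested and enriched, 5 of them with 10 reads in neither input, led by cpr-9 with 292 and 210.0 RPM in the IPs against 23.8 and 10.7 RPM in the inputs. Of 12 lysozyme genes 5 were tested and enriched, all 5 with 10 reads in neither input, among them lys-4 with 105 and 75.9 RPM in the IPs against 2.30 and 0.334 RPM in the inputs.

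Other tissues were represented unevenly. On the list of intestine genes, asp-1, asp-3, cpr-1, cpr-6 and the transcription factor gene elt-7 were the 5 tested of 8 with a row, all 5 enriched and all 5 entering through the IPs, so that none could be tested with 1 IP left out. The yolk genes vit-1 to vit-6 gave 1 tested feature, vit-1, with 13.4 and 7.04 RPM in the IPs and 0 and 0.668 RPM in the inputs. Of the muscle genes, the actin genes act-1, act-2 and act-3 and the tropomyosin gene lev-11 were enriched, while the myosin gene unc-54 had 1.94 and 2.56 RPM in the IPs against 20.1 and 10.0 RPM in the inputs and was depleted. 2 of the 5 tested muscle genes had 10 reads in neither input, and 1 of the 5 was enriched with TMM scaling and 0 with DESeq2. Of 10 neuronal genes 2 were tested, and 1 was depleted by limma but not with TMM scaling, edgeR or DESeq2.

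The propionate shunt breaks down propionate when vitamin B12 is scarce, and acdh-1 is its first enzyme. Of 9 genes of the shunt and of the B12 pathway with a row 6 were tested and 5 enriched, 1 of them through the IPs alone. alh-8 had 489 and 282 RPM in the IPs and 19.2 and 6.68 RPM in the inputs, and hphd-1 had 144 and 131 RPM in the IPs and 12.3 and 6.68 RPM in the inputs. pcca-1, a subunit of the B12-dependent route, had 13.6 and 10.9 RPM in the IPs against 28.2 and 19.1 RPM in the inputs and was not called (limma adjusted p = 0.192), but was depleted with TMM scaling at a log2 difference of -1.47 and with edgeR at -1.56. The 5 called genes all had higher values in both IPs than in either input, as had 2764 of all 2774 enriched antisense coding features.

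Guides against most sperm genes tested were enriched. The major sperm proteins form the cytoskeleton of the crawling worm sperm, and of 31 msp genes 21 were tested and 21 enriched, at a median log2 difference of 3.17. Of the 21, 13 had 10 reads in neither input, and the 2 with 10 reads in both inputs were enriched. Without IP 1 the count was 3 of 8 tested. msp-57 had 151 and 60.5 RPM in the IPs and 4.81 and 3.18 RPM in the inputs. msp-33 had 227 and 83.2 RPM in the IPs and 24.2 and 4.01 RPM in the inputs. Reads of msp genes cannot be assigned with certainty, because the copies are nearly identical.

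Small sperm proteins of the ssp, ssq, nspd and msd families gave 23 tested of 30 genes, of which 23 were enriched, 8 of them with 10 reads in neither input and 9 with 10 reads in both. The count was 15 of 23 with DESeq2 and 7 of 15 tested without IP 1. ssp-16 was the most abundant, with 695 and 293 RPM in the IPs and 90.5 and 45.9 RPM in the inputs. Of 30 spe and fer genes, which were found as mutants with defective sperm, 20 were tested and 18 enriched, 5 of them among the 7 with 10 reads in both inputs, while 7 of the 20 had 10 reads in neither. The count was 12 with TMM scaling or edgeR, 8 with DESeq2, and 3 of 13 tested without IP 1. spe-18 had 75.9 and 43.7 RPM in the IPs and 3.84 and 3.34 RPM in the inputs. The membrane channel gene spe-41 had 87.9 and 76.2 RPM in the IPs against 60.7 and 50.1 RPM in the inputs, and spe-47 had 54.4 and 38.3 RPM in the IPs against 102 and 60.1 RPM in the inputs, and neither was called by limma. spe-47 was depleted with TMM scaling, at a log2 difference of -1.39, and with edgeR and DESeq2. The sperm phosphatase genes gsp-3 and gsp-4 were both enriched, at log2 differences of 2.42 and 3.10.

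Histone genes reached some of the widest gaps. Of 72 histone genes with a row 57 were tested, 52 enriched and 2 depleted, at a median log2 difference of 2.79, and 23 of the 57 had 10 reads in neither input. his-42 had 413 and 304 RPM in the IPs and 4.42 and 1.00 RPM in the inputs, and his-59 had 810 and 553 RPM in the IPs and 15.7 and 11.6 RPM in the inputs. his-24, a linker histone gene, went the other way, with 689.7 and 287 RPM in the IPs and 2183 and 991 RPM in the inputs. Core histone genes are near-identical copies, and 27 rows held values identical to another row, so the number of separate measurements is smaller than 57. With TMM scaling 39 were enriched, and without IP 1 19 of 34 tested.

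Genes of the cytosolic ribosome were enriched almost as a whole. Of 76 such genes 74 were tested and 71 enriched, at a median log2 difference of 3.11, of which 41 tested genes had 10 reads in neither input, and 5 of the 7 with 10 reads in both were enriched. Without IP 1 the count was 20 of 33 tested. rpl-43 had 151 and 89.6 RPM in the IPs and 14.6 and 10.7 RPM in the inputs. rps-10 had 138 and 62.7 RPM in the IPs and 9.22 and 3.34 RPM in the inputs. The genes of the mitochondrial ribosome, chosen after their values were seen, gave 3 enriched of 28 tested, 8 of the 28 with 10 reads in neither input, at a median of 0.67.

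The proteasome lay between these groups. Of its 31 subunit genes, all tested, 19 were enriched at a median log2 difference of 1.42, 4 of the 31 had 10 reads in neither input, and 11 of the 22 with 10 reads in both inputs were called. rpn-2, a subunit of the regulatory particle, had 79.5 and 58.9 RPM in the IPs and 32.3 and 14.03 RPM in the inputs (log2 difference 1.64 ± 0.58 SE, limma adjusted p = 0.0144). pbs-5, a catalytic subunit gene, had 54.3 and 42.9 RPM in the IPs and 26.9 and 15.4 RPM in the inputs (log2 difference 1.21 ± 0.58 SE, limma adjusted p = 0.0708). Both IPs exceeded both inputs for 29 of the 31 genes, but the count of calls was 8 with TMM scaling, 3 with DESeq2, 4 without input 2, and 0 of 27 tested without IP 1.

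**Figure D3:**
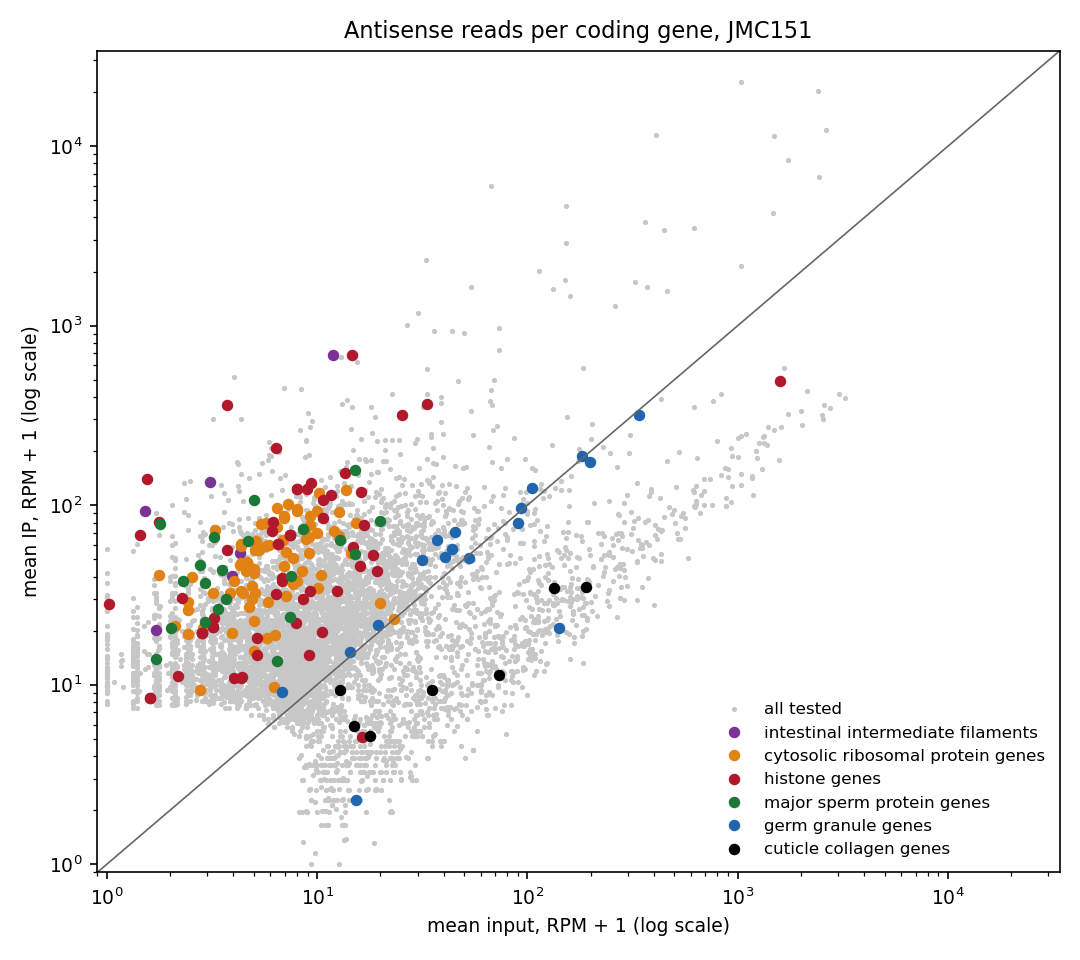
Mean RPM + 1 of the 2 IPs against that of the 2 inputs (log scales) for all 6524 tested antisense coding features, with 6 gene groups in colour and the line of equal values. Intestinal filament, sperm, histone and ribosomal protein genes lie mostly above the line, germ granule genes near it and collagen genes below it.

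Germline genes outside spermatogenesis were mostly at the input level. Germ granules are perinuclear bodies in which small RNA pathways act, and of their 17 tested genes 0 were enriched by limma, also at an unadjusted p under 0.05, 2 were depleted and 15 were not called. 16 of the 17 had 10 reads in both inputs. prg-1, the piRNA Argonaute, had 339 and 294 RPM in the IPs and 441 and 235 RPM in the inputs. glh-1, a germline helicase gene, had 92.4 and 64.7 RPM in the IPs and 109 and 70.0 RPM in the inputs. IPs and inputs overlapped for both genes.

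The depleted germ granule genes were meg-3 and meg-4, which code for disordered proteins of the granule scaffold. meg-4 had 25.9 and 13.4 RPM in the IPs and 180.4 and 99.6 RPM in the inputs (limma adjusted p = 6.24e-05), and meg-3 had 2.59 and 0 RPM in the IPs and 16.6 and 11.9 RPM in the inputs. No gene of this list was enriched by edgeR or DESeq2 either, and 1 was enriched without input 1. The medians of the germ granule, meiotic and oocyte lists lay at 0.23, 0.22 and 0.53 on the log2 scale, and TMM scaling put all 3 below 0, at -0.40, -0.38 and -0.06.

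Among the genes of the synaptonemal complex and the meiotic axis, which hold paired chromosomes together, 1 of 14 tested was enriched and 1 depleted, and neither call held without IP 1 or without IP 2. htp-1 had 58.4 and 71.5 RPM in the IPs and 74.9 and 50.4 RPM in the inputs. zim-1, a chromosome pairing gene, had 34.9 and 27.4 RPM in the IPs and 92.1 and 79.3 RPM in the inputs, and was depleted (limma adjusted p = 0.0305). Of 16 tested oocyte and eggshell genes 4 were enriched: cpg-2, oma-1, mex-5 and egg-5. The count was 1 with DESeq2 and 1 without IP 1 or without IP 2. cpg-2, an eggshell proteoglycan gene, had 76.9 and 44.8 RPM in the IPs and 9.98 and 3.34 RPM in the inputs. gld-1, a translational repressor of the female germline, had 36.8 and 22.6 RPM in the IPs and 57.6 and 23.4 RPM in the inputs and was not called.

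Of 17 tested Argonaute genes 7 were enriched, a share near the 42.5% of all antisense coding features, and 1 was depleted. 3 of the 17 had 10 reads in neither input, and the enriched count was 1 of 14 tested without IP 1 and 2 without IP 2. The Argonautes of spermatogenesis were among the enriched ones: wago-10 had 89.2 and 45.4 RPM in the IPs and 4.69 and 2.67 RPM in the inputs, alg-4 had 82.8 and 56.7 RPM against 18.8 and 5.09 RPM, and alg-3 had 61.6 and 41.9 RPM against 8.87 and 10.9 RPM. alg-1, a microRNA Argonaute of somatic tissue, had 40.7 and 39.2 RPM in the IPs and 2.30 and 2.67 RPM in the inputs. rde-1, sago-1 and sago-2, known from RNA interference, were enriched as well. csr-1 itself had 130.4 and 117 RPM in the IPs and 138 and 70.8 RPM in the inputs, and the groups overlapped.

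Genes that make secondary small RNAs, a list chosen after its values were seen, gave 0 enriched of 12 tested by limma, with 1 above 0 at an unadjusted p under 0.05, among them ego-1 with 77.3 and 79.2 RPM in the IPs and 68.3 and 30.0 RPM in the inputs. eri-6, part of the endogenous RNAi pathway, was depleted at 409.3 and 379 RPM in the IPs against 3917 and 2556 RPM in the inputs. dcr-1, which codes for Dicer, was enriched, with 61.2 and 59.95 RPM in the IPs and 23.8 and 14.03 RPM in the inputs.

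**Figure D4:**
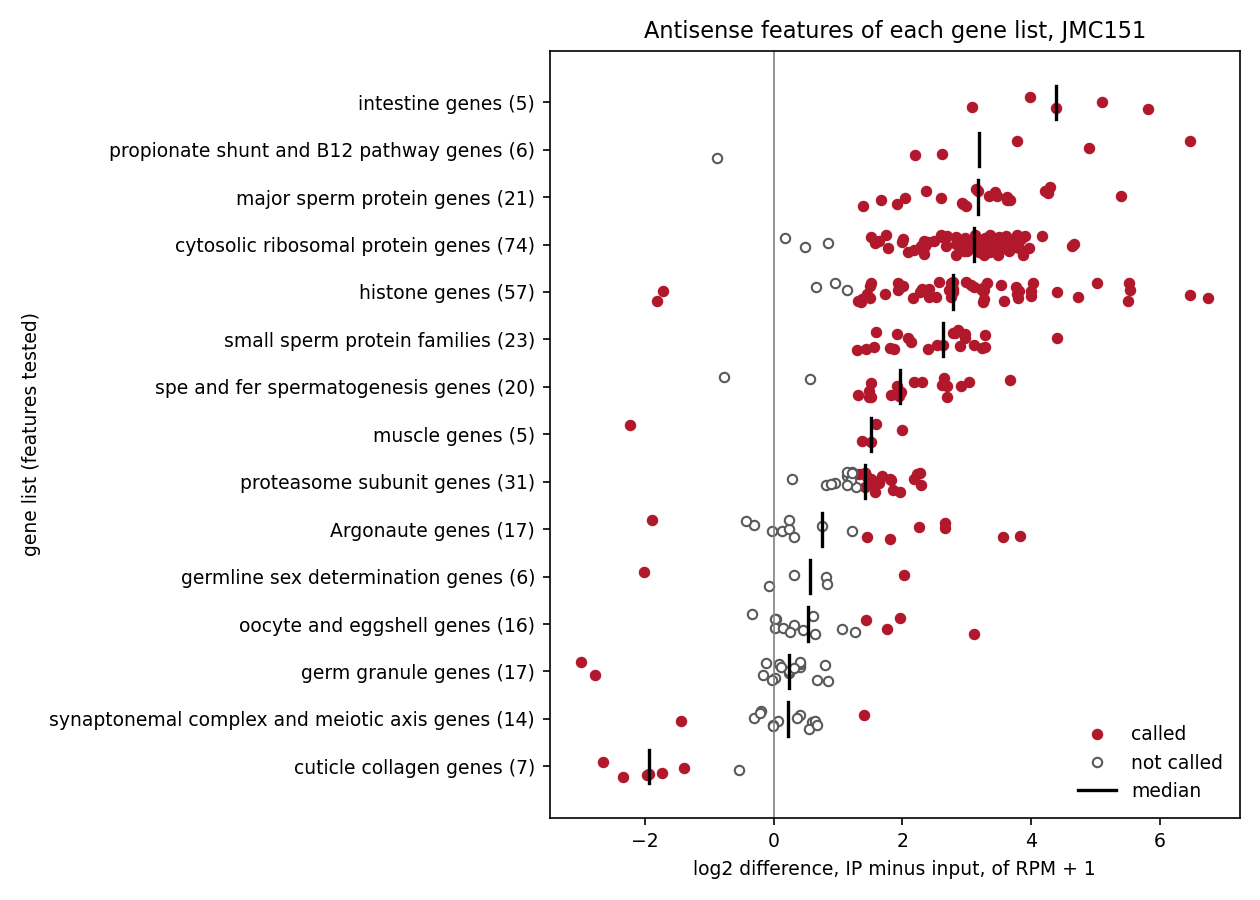
Log2 difference between IPs and inputs, of RPM + 1, for each tested antisense feature of the gene lists with at least 5 tested features, ordered by median (black bar), with the number tested in brackets. Filled points passed the test in either direction; intestine, propionate shunt, sperm, ribosomal protein and histone genes lie highest and collagen genes lowest.

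Named gene classes showed the same range when grouped by the letters of their symbols, over 71 classes with at least 8 tested antisense features. The classes rps, msp and ssp were enriched in every tested member. Heat shock genes (hsp) were enriched in 7 of 8, C-type lectin genes (clec) in 22 of 28 and UDP-glucuronosyltransferase genes (ugt) in 11 of 14. Over all antisense coding features tested 42.5% were enriched and 15.4% depleted. For hsp, clec and ugt the members with 10 reads in neither input were not counted. The limit of the test may therefore have fixed much of their enriched counts. At the other end, all 8 tested fbxb genes and 6 of 8 lido genes were depleted. So were 12 of 20 bath genes, 25 of 48 fbxa genes and 6 of 10 ceh genes. These classes were split, with 15 fbxa, 5 bath, 1 lido and 1 ceh genes enriched. The fbxa and fbxb genes code for F-box proteins, bath genes for proteins with MATH and BTB domains, and ceh genes for homeodomain proteins.

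Depleted antisense features had the widest gaps at genes with little annotation. K05C4.9 had 21.7 and 31.9 RPM in the IPs and 481 and 319 RPM in the inputs, and T04D1.2 had 9.05 and 15.4 RPM against 204 and 159.7 RPM. F16B4.6 had 33.1 and 34.98 RPM in the IPs and 395 and 306 RPM in the inputs. Y73B3B.1 had no read in either IP and 14.3 and 9.08 RPM in the inputs. B0393.8, listed under 2 gene IDs, and F31E3.6 held identical values, 2.80 and 3.84 RPM in the IPs and 67.6 and 40.3 RPM in the inputs, and count as 1 measurement.

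Cuticle collagen genes, expressed in the skin, lay on the depleted side. Of 118 with a row 7 had enough reads, all with 10 reads in both inputs, and 6 of them were depleted by limma, edgeR and DESeq2. The count was 1 of 7 without IP 2, 4 of 7 without IP 1 and 3 of 6 tested without input 1. col-71 had 42.0 and 26.2 RPM in the IPs and 265 and 112 RPM in the inputs, and col-45 had 10.3 and 10.2 RPM in the IPs and 87.5 and 56.1 RPM in the inputs. The other 111 collagen genes were below the limit of the test.

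Transposons followed the same direction. Of 138 tested features antisense to transposons 105 were depleted (76.1%) and 7 enriched (5.07%), against 20.2% and 32.5% of all features tested. The element WBTransposon00000730 had no read in either IP and 122 and 77.9 RPM in the inputs. WBTransposon00000712 was the exception with the largest difference, at 533 and 789 RPM in the IPs and 29.2 and 24.7 RPM in the inputs. Features antisense to pseudogenes were split, with 64 enriched (27.6%) and 120 depleted (51.7%) of 232 tested, although the class as a whole took a larger share of the IPs. WBGene00013644, the pseudogene with the largest log2 difference, had 3560 and 4267 RPM in the IPs and 127.5 and 118 RPM in the inputs.

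Of 32 tested features antisense to lincRNAs 16 were enriched (50%) and 7 depleted (21.9%), against 32.5% and 20.2% of all features tested. F19G12.10 had 3600 and 3273 RPM in the IPs and 195 and 118 RPM in the inputs, and linc-19 had 434 and 844 RPM in the IPs and 28.4 and 26.1 RPM in the inputs. T08B2.14, a noncoding RNA gene, had 606 and 310.5 antisense RPM in the IPs and 1.54 and 2.004 RPM in the inputs. The log2 differences of these 3 loci were 4.49, 4.43 and 7.30.

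Of 125 tested microRNAs 64 were depleted (51.2%), 3 enriched (2.4%) and 58 not called. Over all features tested 20.2% were depleted and 32.5% enriched. miR-58a-3p, the most abundant in the inputs, had 9776 and 13210 RPM in the IPs and 41097 and 80626 RPM in the inputs (log2 difference -2.34 ± 0.58 SE, limma adjusted p = 0.000465). miR-71-5p had 24857 and 12127 RPM in the IPs and 12613 and 8562 RPM in the inputs, and the muscle microRNA miR-1-3p had 3331 and 23479 RPM in the IPs and 8688 and 29530 RPM in the inputs. Neither was called, and for miR-1-3p the IPs overlapped the inputs and differed from each other by more than the group means did. Among 53 tested piRNAs, the guides of PRG-1, 5 were enriched (9.43%) and 10 depleted (18.9%). The depleted share is near that of all features tested.

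Sense reads of coding genes gave 66 enriched (4.41%) and 227 depleted (15.2%) of 1498 tested features, against 32.5% and 20.2% of all features tested. clec-212 had 451 and 401 sense RPM in the IPs and 7.68 and 3.34 RPM in the inputs, and aakb-1 had 186 and 219.6 sense RPM against 6.14 and 5.34 RPM. Whether these reads are antisense to an overlapping gene was not tested. Of 1195 genes with both strands tested, 28 were enriched on both, 23 were enriched antisense and depleted sense, and 5 the reverse. tRNA features were mostly depleted, 68 of 95 (71.6%), and 8 were enriched (8.42%). WBGene00023060 had 401.9 and 30.2 RPM in the IPs and 2.45 and 0.974 RPM in the inputs, so that its size rests on IP 1. WBGene00023045 had 36.5 and 35.1 RPM in the IPs and 0 and 0.167 RPM in the inputs.

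The enrichments of CSR-1a and CSR-1b differed at many features. Antisense coding reads were on average 85.6% of assigned reads in the CSR-1b IPs and 35.2% in the CSR-1b inputs. In JMC151 these means were 40.8% and 28.4%. rRNA stood at 1.21% in the CSR-1b IPs and 4.44% in their inputs, against 18.4% and 19.4% in JMC151. Whether this difference in composition shifted the enrichments was not tested. The difference between the 2 enrichments was tested in one limma fit for each feature with 10 reads in at least 2 libraries of each strain. Of 6315 antisense coding features, 839 were more enriched with CSR-1a (13.3%) and 1948 less enriched (30.8%). Of the same 6315, CSR-1a enriched 2570 and CSR-1b 3807. They shared 1654, which is 64.4% of the CSR-1a set and 43.4% of the CSR-1b set. Sets that take up this much of the 6315 share many features by size alone, and the overlap was not tested.

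Gut genes differed between the isoforms. acdh-1 had 9.66 and 4.803 RPM in the CSR-1b IPs and 43.2 and 31.6 RPM in the CSR-1b inputs, so that its difference in log2 enrichment, CSR-1a minus CSR-1b, was 8.74 ± 0.56 SE (limma adjusted p = 1.35e-05). ifc-2 had 2.41 and 1.37 RPM in the CSR-1b IPs and 8.06 and 7.81 RPM in the CSR-1b inputs. All 5 intestinal filament genes, all 5 aspartyl protease genes and all 5 cathepsin B genes that could be compared were more enriched with CSR-1a. These families were chosen after their JMC151 values were seen. Most of their tested genes had entered the test through the JMC151 IPs, so these counts were largely fixed in advance. Histone genes were more enriched with CSR-1a in 27 of 53, major sperm protein genes in 11 of 20 and small sperm protein genes in 14 of 23. Of the other sperm genes, 2 of 20 spe and fer genes were more enriched with CSR-1a, and neither gsp-3 nor gsp-4 passed the test. Ribosomal protein genes were enriched with both isoforms: CSR-1b enriched 72 of 75 tested. Of 74 compared, 6 were more enriched with CSR-1a and 0 less.

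Germline genes outside spermatogenesis went the other way, and so did genes of the proteasome and of the mitochondrial ribosome. Of germ granule genes 15 of 17 were less enriched with CSR-1a than with CSR-1b, and so were 13 of 14 meiotic genes, 11 of 16 oocyte genes and 18 of 31 proteasome genes. In the CSR-1b IPs the medians of the germ granule and meiotic lists were 3.04 and 3.07 on the log2 scale over the features tested in all 4 strains, against 0.23 and 0.22 in the CSR-1a IPs. csr-1 had 1454 and 1375 RPM in the CSR-1b IPs and 136 and 197 RPM in the CSR-1b inputs, at a difference of -2.79 ± 0.59 SE between the isoforms (limma adjusted p = 0.00567). Mitochondrial ribosomal genes were less enriched with CSR-1a in 21 of 28.

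ALG-3 was compared in the same way. Of 6371 antisense coding features, 1472 were more enriched with CSR-1a than with ALG-3 (23.1%) and 865 less (13.6%). Small sperm protein genes were less enriched with CSR-1a in 15 of 23, spe and fer genes in 10 of 20 and major sperm protein genes in 6 of 21. ssp-16 had 1305 and 1314 RPM in the ALG-3 IPs and 37.1 and 42.0 RPM in the ALG-3 inputs. Histone genes were more enriched with CSR-1a in 42 of 54, at a median of -0.58 with ALG-3 over the features tested in all 4 strains. The 5 intestine genes compared were all more enriched with CSR-1a. All 5 had entered the test through the JMC151 IPs, so this count was largely fixed in advance. asp-6 had 3.09 and 2.17 RPM in the ALG-3 IPs and 1.56 and 1.41 RPM in the ALG-3 inputs. With TMM scaling the share of calls that were higher with CSR-1a was 53.4%, against 63.3% with scaling to library totals, over all 9054 features, of which 1746 were higher (19.3%) and 1011 lower (11.2%). Without JMC151 IP 1 the balance turned, with 626 higher and 662 lower, and without JMC151 input 1 it was 3244 and 1126.

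GR3035, whose IP is also labelled CSR-1a, differed from JMC151 at few features. Over all classes 4 were more enriched in JMC151 (0.0435%) and 11 less (0.12%). Of 6520 antisense coding features 0 were more enriched in JMC151 (0%) and 1 less (0.0153%) by limma; 530 had an unadjusted p under 0.05, and edgeR called 28 features of all classes. The 1 feature was aex-5, a protease gene, with 5.17 and 7.04 RPM in the JMC151 IPs and 14.6 and 10.0 RPM in the JMC151 inputs. Of 2771 features that the JMC151 IP enriched, 2472 were also enriched in GR3035, which is 89.2% of the JMC151 set and 80.7% of the GR3035 set. The GR3035 IP enriched 3062 of the 6520, so part of this overlap follows from the size of the sets. A p over the threshold does not show that the strains were alike, and the direction of the few calls was not stable: edgeR had 21 higher and 7 lower, and without JMC151 input 1 there were 83 higher and 32 lower.

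The list medians of both strains were set side by side. Over the features tested in all 4 strains the median log2 enrichment of major sperm protein genes was 3.26 in JMC151 and 2.68 in GR3035, that of histone genes 2.98 and 2.54, that of ribosomal protein genes 3.11 and 2.57, and that of germ granule genes 0.23 and 0.53. acdh-1 had 2939 and 3199 RPM in the GR3035 IPs and 53.0 and 62.6 RPM in the GR3035 inputs. rpn-2, the gene of the GR3035 reporter, had 214 and 286 antisense RPM in the GR3035 IPs and 631 and 594 RPM in the GR3035 inputs, where JMC151 had 79.5 and 58.9 RPM in the IPs and 32.3 and 14.03 RPM in the inputs. The difference for rpn-2 was 2.94 on the log2 scale and did not pass the test (limma adjusted p = 0.112).

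**Figure D5:**
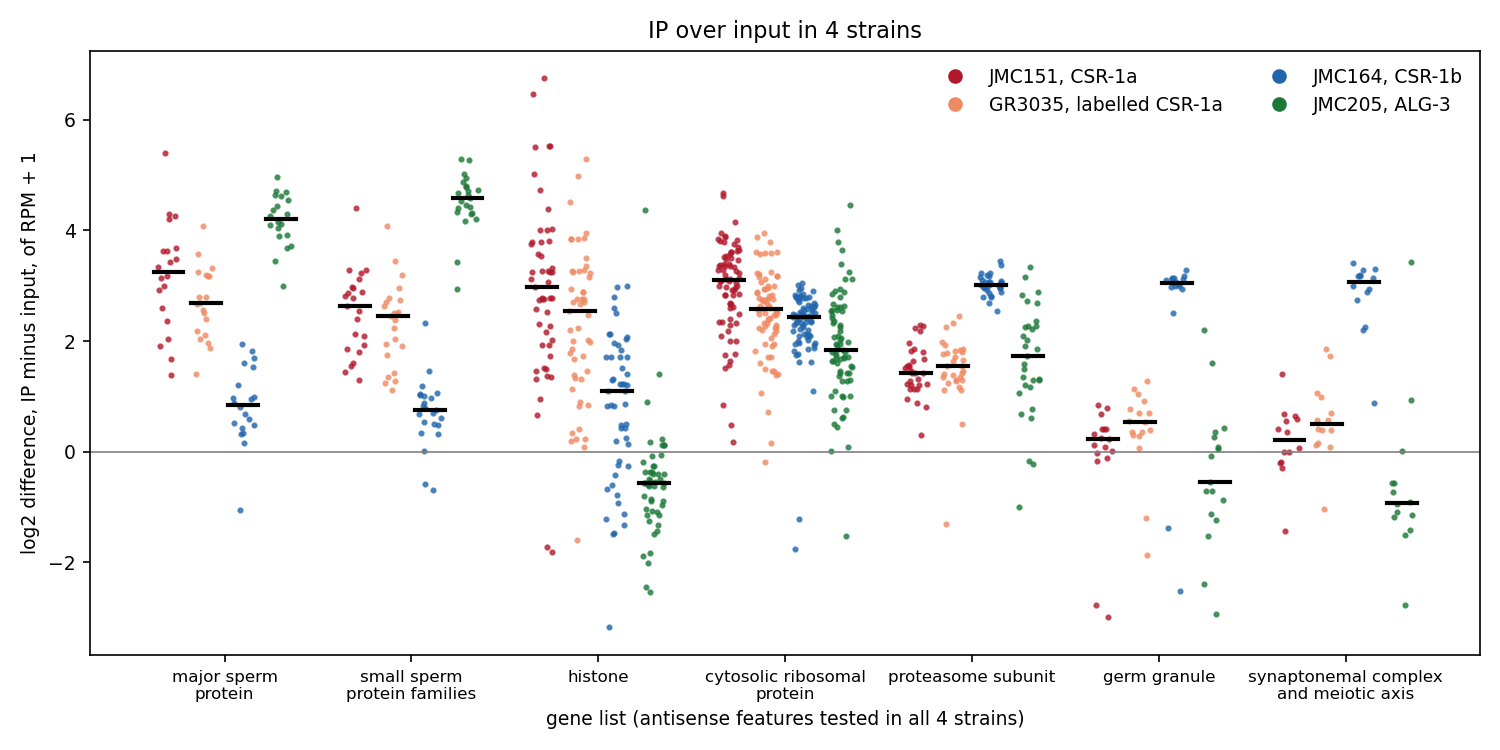
Log2 difference between IPs and inputs, of RPM + 1, for the antisense features of 7 gene lists that were tested in all 4 strains, with 1 point a feature and the median as a bar. JMC151 and GR3035 lie high for sperm, histone and ribosomal protein genes, JMC164 near 3 for proteasome, germ granule and meiotic genes, and JMC205 highest for the sperm lists. For ribosomal protein genes JMC164 has a median of 2.43, against 3.11 in JMC151 and 2.57 in GR3035.

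The mRNA of the genes whose guides CSR-1a enriched was compared between the csr-1a mutant and N2, in libraries apart from the IPs. csr-1 mRNA had 181, 114 and 109 CPM, counts scaled to the library total, in the mutant and 326, 275 and 351 CPM in N2 at 25 C, and was not called (edgeR adjusted p = 0.0657). A whole-gene count does not show which isoform is lost, so it does not check the label. At 25 C, of 2749 such genes 333 were higher in the mutant (12.1%, against 17.4% of all genes tested) and 358 lower (13%, against 11.2%), by edgeR's adjusted p. The direction at 25 C was not stable. Genes enriched at a log2 difference of at least 2 had 276 higher (16.8%) and 151 lower (9.21%). With DESeq2 356 of the 2749 were higher and 581 lower, and without mutant replicate 3 at 25 C 221 were higher and 149 lower. At 20 C 33 were higher (1.2%, against 1.95% of all genes tested) and 52 lower (1.89%, against 5.16%). Mutant replicate 3 at 20 C decided this count: without it, 1123 genes were called, 716 higher and 407 lower, against 85 with all 12 libraries. DESeq2 had 96 higher and 82 lower, so neither the count nor its direction at 20 C was stable. 

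At 25 C the gene groups went different ways, beside 17.4% higher and 11.2% lower of all genes tested. Histone mRNAs were higher in the mutant for 38 of 59 genes and lower for 1, and his-42, for example, had 4.12, 5.69 and 13.8 CPM in the mutant and 1.38, 1.28 and 1.22 CPM in N2. Proteasome mRNAs were lower for 20 of 31, and rpn-2 had 166, 127 and 114 CPM in the mutant and 312, 188 and 315 CPM in N2 (log2 difference -0.96 ± 0.25 SE, edgeR adjusted p = 0.0146). Small sperm protein mRNAs were lower for 8 of 29 and major sperm protein mRNAs for 6 of 26. Ribosomal protein mRNAs were higher for 7 of 76, a smaller share than the 17.4% of all genes tested.

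Gut mRNAs were among those higher in the mutant at 25 C, where 17.4% of all genes tested were higher and 11.2% lower. The counts of these families were taken from the main fit only. Of the intestinal filament genes 5 of 6 were higher, as were 8 of 11 aspartyl protease genes, 8 of 12 lysozyme genes and 3 of 7 cathepsin B genes, all by edgeR's adjusted p. These families were chosen after their guide values were seen, and other genes of the gut differed. Of 6 yolk genes 0 were higher and 2 lower. Of 9 shunt and B12 pathway genes 3 were higher and 3 lower, and of the 5 with enriched guides 0 were higher and 3 lower. asp-6 had 3288, 5143 and 4214 CPM in the mutant and 1456, 1296 and 1449 CPM in N2 (log2 difference 1.63 ± 0.21 SE, edgeR adjusted p = 0.000317). ifb-2 had 649, 909 and 701 CPM in the mutant and 442, 375 and 432 CPM in N2. In each the 3 mutant libraries lay above the 3 of N2, while at 20 C neither was called, at log2 differences of 0.33 and 0.12.

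Single genes with the strongest guides differed. Y47H10A.5 mRNA was higher in the mutant at both temperatures, with 25.4, 22.4 and 15.2 CPM in the mutant and 2.77, 3.90 and 5.90 CPM in N2 at 20 C, and 99.97, 96.4 and 92.4 CPM in the mutant and 21.1, 19.7 and 24.2 CPM in N2 at 25 C. Its log2 differences were 2.32 and 2.19 (edgeR adjusted p = 0.000336 and 6.99e-05). At 25 C the mRNA of K06B9.6 was higher by 1.09 and that of Y38E10A.14 lower, at -1.26. acdh-1 had 891, 1066 and 797 CPM in the mutant and 1360, 1448 and 1341 CPM in N2 at 25 C, which did not pass the test (edgeR adjusted p = 0.0711). gfi-1 had 880.0, 943 and 1041 CPM in the mutant and 636, 466 and 701 CPM in N2 and was not called either.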

How the data were processed

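The small RNA tables were deposited by the authors as RPM per feature and class, with 0.01 added to every value, as the values show. The mRNA tables were deposited by the authors as counts per gene. Per the submitters' processing notes cutadapt, STAR, FastQC and DESeq2 were used. Versions, genome build, annotation and the counting of reads shared between copies were not given in the sources used here. Per the labels' protocols the small RNA was treated with 5' polyphosphatase before library preparation.

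The offset was removed and reads were estimated from the step of low values. Only 85.6% to 87.2% of low JMC151 values (up to 20 reads) were whole within 0.02 reads, so estimated reads served for filters, intervals and alternatives. limma 3.58.1 (R 4.3.3, trend) was fitted on log2(RPM + 1), which understates changes of low features, and the difference between strains as an interaction. mRNA was tested with edgeR 4.0.16 (quasi-likelihood). DESeq2 1.42.0, TMM, pseudocounts, filters and left-out libraries were alternatives. All p-values were adjusted over all features tested. Scripts were tested on simulated data. Class shares have exact 95% binomial intervals of at most 0.0865 points either way, for counting error only.

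The members and gene lists were chosen with earlier results of these data known. Genes were named as the widest gaps between IPs and inputs in each direction, the most abundant called features, the leading features of each class, list members and differences between strains; family examples beyond these were chosen after their values were seen. The labels do not say whether libraries come from separate cultures, so p-values measure only the spread between these samples. 24 columns of 6 other tables were not used. No sequence is reported.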

Additional observations from a re-analysis of the deposited data

Results flagged for a closer look

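17 differences in enrichment between JMC151 and another strain were flagged, and each passed the interaction test of limma. They are the largest in each direction among the antisense coding features called against each strain. Many more passed: over all classes 3168 features against JMC164, 2757 against JMC205 and 15 against GR3035. Against JMC164 (CSR-1b), the log2 difference was 8.74 for acdh-1, 8.73 for Y38E10A.14, 9.26 for ZK402.2 and 8.41 for H03A11.2, all more enriched with CSR-1a. It was -4.31 for set-21, -3.98 for C55B7.11, -3.97 for dsb-3 and -3.92 for T12F5.2, all less enriched with CSR-1a.

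Against JMC205 (ALG-3), the log2 difference was 8.62 for gfi-1, 7.62 for his-32, 7.77 for K06B9.6 and 10.73 for ZK402.2, all more enriched with CSR-1a. It was -5.60 for ZC190.7, -5.14 for K03B4.6, -5.10 for ZK637.4 and -4.97 for irld-6, all less enriched with CSR-1a. Against GR3035, aex-5 was less enriched in JMC151, at -5.82.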

How the results depend on the processing

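The direction of the class shares held in the alternatives run, at gaps of 5.20 to 19.5 points for antisense coding reads and -21.2 to -5.97 points for microRNAs with 1 library left out. The 3014 enriched features numbered 0 with no filter on low values, 770 with 10 reads in both inputs, 764 with 10 in all 4 libraries, 1380 with DESeq2, 1817 at a log2 difference of at least 2, and 370 to 3662 with 1 library left out. The 1873 depleted ones numbered 0 with no filter, 938 with 10 reads in all 4 libraries, and 706 to 1203 with 1 library left out. Fewer features could be tested without a library; otherwise the cause was not tested. Calls against JMC164 (3168) numbered 1789 with 10 reads in all 8 libraries and 1441 to 3880 with 1 left out, and those against JMC205 (2757) 1289 and 1288 to 4370. The 15 calls against GR3035 numbered 8 with TMM (5 higher, 3 lower), 27 with 10 reads in all 8 libraries, 0 with no filter, 28 with edgeR, and 2 to 115 with 1 left out. The mRNA calls numbered 178 with DESeq2 and 37 to 1123 with 1 left out at 20 C, against 85, and 427 for genes enriched at a log2 difference of at least 2 and 346 to 617 with 1 left out at 25 C, against 691.

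The labels do not say that replicate numbers pair libraries. Same-numbered JMC151 libraries deviated together at 0.247, and 6 of 18 mRNA pairs were over 0.1 (-0.416 to 0.474). With the replicate block the calls numbered 3498 enriched and 2041 depleted, 4404 against JMC164, 3314 against JMC205, 23 against GR3035, and 67 and 585 for mRNA at 20 and 25 C.

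Uncalled values near 0 changed sign. With TMM, edgeR and DESeq2 they were -0.061, -0.055 and -0.051 for spe-41, -0.37, -0.42 and -0.43 for egg-6, -0.47, -0.48 and -0.48 for cbd-1, -0.55, -0.52 and -0.52 for htp-1, -0.40, -0.46 and -0.47 for wago-4, -0.31, -0.31 and -0.31 for csr-1, -0.37, -0.39 and -0.39 for ZK637.4, and -0.43, -0.43 and -0.43 for irld-6. With 1 library left out they ran from -0.46 to 0.96 for egg-6, -0.37 to 0.66 for cbd-1, -0.97 to 0.29 for gld-1, -0.21 to 0.35 for htp-1, -0.37 to 0.34 for htp-3, -0.34 to 0.33 for syp-6, -0.48 to 0.43 for prg-1, -0.64 to 0.40 for glh-4, -0.54 to 1.01 for wago-4, -0.16 to 0.79 for csr-1, -2.27 to 0.55 for miR-1-3p, -0.71 to 0.027 for miR-82-3p, -0.62 to 0.41 for K03B4.6, -0.023 to 0.48 for ZK637.4 and -0.0062 to 0.35 for irld-6.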

Other observations

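The subunits of the vacuolar proton pump (V-ATPase), which acidifies compartments in many tissues, were described after their values were seen. Of 18 tested 14 were enriched in the JMC151 IPs, and 8 of the 18 had 10 reads in neither input. vha-6, the subunit of the intestine, had 86.9 and 55.04 RPM in the IPs and 4.61 and 1.34 RPM in the inputs. The family was not particular to CSR-1a: CSR-1b enriched 14 of 18 tested and ALG-3 12 of 18. Of 17 genes compared with CSR-1b, 2 were more enriched with CSR-1a and 3 less. Against ALG-3 the counts were also 2 and 3 of 17. In the mRNA at 25 C 1 of 19 V-ATPase genes was lower in the mutant, against 11.2% of all genes tested.

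ZK402.2 had 1594 and 1699.5 RPM in the IPs and 0 and 106 RPM in the inputs, so that its input level rests on input 2. H03A11.2 had 608 and 287 RPM in the IPs and 9.22 and 2.67 RPM in the inputs.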
